A study of Saccharomyces cerevisiae with 6 samples.

Results

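The transcripts described here are those of 10 budding yeast genes for sirtuins and silencing factors: SIR1, SIR2, SIR3, SIR4, HST1, HST2, SUM1, RFM1, DOT1 and SAS2. They were chosen by name from the 5871 open reading frames (ORFs) of the table that matched a protein-coding gene, and all 10 were among the 5211 genes tested after a filter on low values. Poly(A) RNA of exponentially growing Saccharomyces cerevisiae in the rich medium YPD was sequenced with a stranded kit, after total RNA of Schizosaccharomyces pombe had been added as a spike-in at a mass ratio of 10:1. There were 3 groups of 2 libraries: wild type, a strain without RTT109, and a strain without both HST3 and HST4. Whether the replicates are separate cultures is not stated in the labels, so p-values measure only the spread between these libraries, which may be technical.

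All 3 strains are labelled with can1-100, ura3-1, trp1-1, leu2-3 112 and his3-11 15, with URA3::GDP-TK(7x), with AUR1c::ADH-Hent1 (spelled ADH-hENT1 in the rtt109 strain) and with bar1 deleted by HIS3. Wild type is labelled MATa with ade2-1::ADE2 and Rpb3-3HA::TRP, a tagged subunit of RNA polymerase II. The hst3 hst4 strain shares those alleles, carries Δhst3::HygMX and Δhst4::NatMX, and is labelled MATalpha. The rtt109 strain is labelled MATa with ∆rtt109::Kan, ade2-1, GAL, psi+ and RAD5+, and without the tag on Rpb3. The effect of a deletion therefore cannot be told apart from these other differences between the strains.

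Silencing in budding yeast keeps the silent mating-type cassettes, the genes near telomeres and part of the ribosomal DNA repressed. Sir1 helps to recruit the Sir complex to the silencers of the mating-type cassettes, Sir2 is the NAD-dependent deacetylase that removes acetyl groups from histone tails, and Sir3 and Sir4 bind the deacetylated tails and spread. Hst1 is the closest relative of Sir2 and represses middle sporulation genes and genes of NAD synthesis, tethered by Rfm1 to the DNA-binding protein Sum1, while Hst2 is a mostly cytoplasmic sirtuin. Sas2 acetylates histone H4 and Dot1 methylates histone H3, and both marks hinder binding of Sir3 and so keep silencing within its borders. Rtt109 acetylates newly made histone H3, a mark that a further pair of sirtuins, Hst3 and Hst4, takes off again.

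The gene value used throughout is a level: the mean spike-in scaled coverage per bin of 50 bases on the sense strand of the ORF, so that levels of different genes are per length. The libraries summed to between 474278 and 784679 units of coverage, and the numbers of reads behind them are unknown. The smallest step between low values, which is worth more coverage where a library is shallower, ran from 0.00398 in replicate 1 of wild type to 0.0124 in replicate 2 of the hst3 hst4 strain. RTT109 had 0.763 and 0.830 in wild type against 0.00123 and 0.00342 in its deletion. HST3 had 1.32 and 1.36 in wild type against 0.0131 and 0.00999 in the double deletion, where HST4 had 0.0617 and 0.00648 against 0.470 and 0.672. BAR1 was listed at 0 in all 6 libraries. The a-specific transcripts of the hst3 hst4 strain went against its mating-type label: STE2, the a-specific receptor gene, had 22.6 and 23.4 there against 15.5 and 30.2 in wild type, and STE3, the alpha-specific one, had 0.0209 and 0.0186, close to the step of these libraries. For all 4 alpha-specific genes listed both hst3 hst4 libraries were above both wild-type libraries, which held for 24.2% of all genes with a value. But 3 of the 4 were left out of the test for low values, and it held for 53.3% of the 580 genes so left out. The pheromone gene MF(ALPHA)1, 1 of those 3, had 0.327 and 0.345 against 0.0375 and 0.0271. The group is called here by its deleted genes.

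Levels of the 10 genes spanned the lower and middle part of the transcriptome. In wild type, HST1 stood at the 64.8th percentile of tested genes and SAS2 at the 57.4th, RFM1 and HST2 at the 47.6th and 46.4th, and SUM1 and DOT1 at the 34.8th and 32.1st. By this level the 4 SIR genes were the lowest of the set. SIR4 stood at the 24.9th percentile, SIR2 at the 16.1st, SIR3 at the 13.5th and SIR1 at the 9.69th. By the mean over all 6 libraries, the level of HST1, 2.41, was above that of HST2, 1.78, in 6 of 6 libraries, and that of SIR4, 0.684, above that of SIR3, 0.480, in 6 of 6. Other neighbours in that order were not separated in every library. HST2 was above SAS2 in 3 of 6, SAS2 above RFM1 in 4 of 6, DOT1 above SIR4 in 4 of 6, SIR3 above SIR2 in 4 of 6 and SIR2 above SIR1 in 4 of 6, whereas RFM1 exceeded SUM1 and SUM1 exceeded DOT1 in 5 of 6 each. The level and percentile of SIR2 here came from only 6 bins at the start of the gene. Over the bins between its start and end marks, SIR3 was 0.564 to 1.07 times SIR2 within a library. SIR1 was 0.422 to 0.834 times SIR2 there, and so below it in every library. The order also depended on the part of the gene that was read. In the last of 3 equal sections of each gene, SIR4 was above DOT1 in every library, with wild-type means of 1.57 and 1.09. The 4 SIR genes were thus not the lowest in that section. HST1 was 0.849 and 0.885 times HST2 there in replicate 2 of the rtt109 and hst3 hst4 strains. In the other libraries it was 1.09 to 2.03 times HST2.

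**Figure D1:**
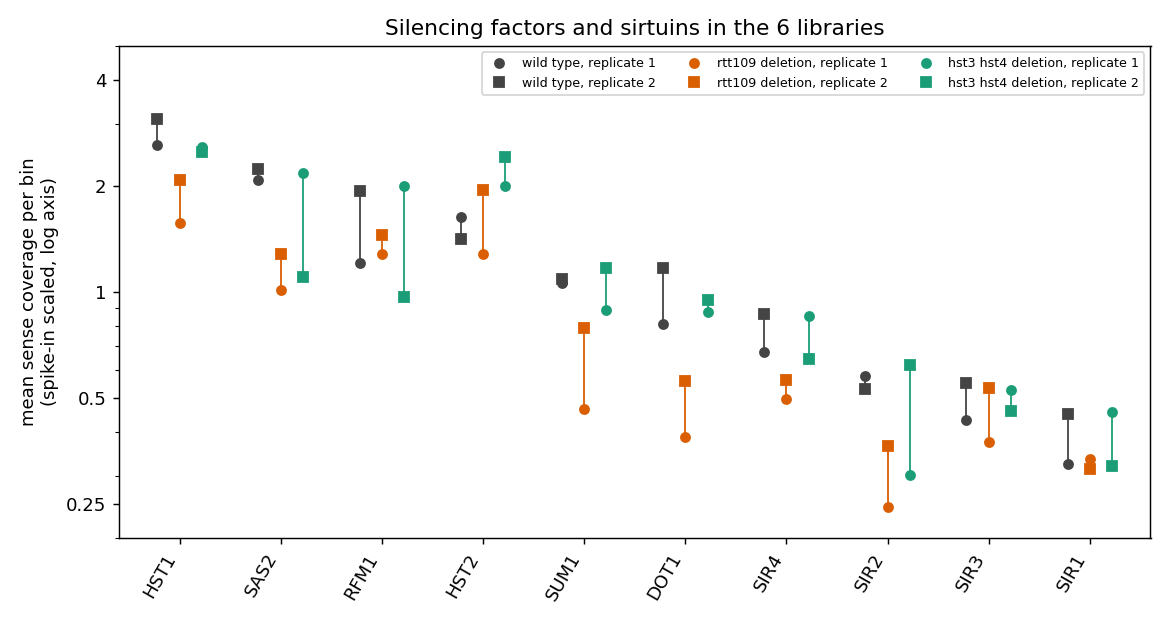
Level of each gene in the 6 libraries, as mean sense coverage per bin on a log axis, with genes ordered by their wild-type mean and a line joining the 2 libraries of a group. HST1 is at the top, from 1.57 to 3.09, and SIR1 at the bottom, from 0.314 to 0.455. Both rtt109 libraries lie below both wild-type libraries for 6 of the 10 genes, and for 48.6% of all tested genes.

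The genes of the Sir complex had low levels, with wild-type means from 0.387 for SIR1 to 0.772 for SIR4. They lay further apart in the last section of each gene, with SIR2 read between its marks. The wild-type means there were 0.351 for SIR1, 0.738 for SIR3, 0.952 for SIR2 and 1.57 for SIR4. SIR1 (YKR101W, Watson strand of chromosome 11, bins labelled 640151 to 642151) had 0.324 and 0.450 in wild-type cells, 0.335 and 0.314 in the rtt109 strain and 0.455 and 0.321 in the hst3 hst4 strain. SIR3 (YLR442C, Crick strand of chromosome 12, 1019351 to 1022251) had 0.433 and 0.550 in wild-type cells, 0.375 and 0.534 in the rtt109 strain and 0.526 and 0.459 in the hst3 hst4 strain. For both genes the 3 groups overlapped. SIR4 (YDR227W, Watson strand of chromosome 4, 917601 to 921651) had 0.676 and 0.868 in wild-type cells, 0.497 and 0.562 in the rtt109 strain and 0.856 and 0.646 in the hst3 hst4 strain. Both rtt109 libraries were thus below the other 4 libraries for SIR4.

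SIR2 (YDL042C, Crick strand of chromosome 4) needs a separate word, because the table gives its name to 8 bins only, labelled 378101 to 378451, of which 6 entered its level. These bins lie at the start of the gene, and 35 bins lie between the start and end marks that the table sets for it, 376701 to 378450. Over the named bins SIR2 had 0.578 and 0.529 in wild-type cells, 0.244 and 0.364 in the rtt109 strain and 0.302 and 0.619 in the hst3 hst4 strain. Over the bins between the marks it had 0.769 and 0.669, 0.402 and 0.500, and 0.587 and 0.732 in the same order. Both rtt109 libraries were below both wild-type libraries in either reading. Over the named bins the hst3 hst4 libraries lay on either side of both wild-type libraries, and over the whole gene they lay closer together.

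HST1 (YOL068C, Crick strand of chromosome 15, 200401 to 201901) had 2.62 and 3.09 in wild-type cells, 1.57 and 2.08 in the rtt109 strain and 2.58 and 2.50 in the hst3 hst4 strain. Both rtt109 libraries were the lowest of the 6. The level of HST1 was 4.04 to 8.55 times that of SIR2 within a library over the named bins, and 3.41 to 4.62 times over the bins between the marks of SIR2, so that the Sir2-like deacetylase outside the Sir complex had the more abundant transcript in every library. HST2 (YPL015C, Crick strand of chromosome 16, 525851 to 526901) had 1.63 and 1.41 in wild-type cells, 1.28 and 1.95 in the rtt109 strain and 2.00 and 2.41 in the hst3 hst4 strain. Both hst3 hst4 libraries were above the other 4, and the rtt109 libraries lay on either side of wild type. The ratio of HST1 to HST2 was accordingly 1.61 and 2.19 in the wild-type libraries and 1.04 to 1.29 in the 4 mutant libraries. Over the last section of each gene it was 1.31 and 2.03 in wild type and 0.849 to 1.11 in the mutant libraries. These ratios were not tested, and the share of other gene pairs that part in this way was not counted. The ratio of HST1 to SUM1 overlapped, with 2.47 and 2.84 in wild type and 2.13 to 3.38 in the mutant libraries.

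SIR2 and HST1 arose from a common ancestor by duplication, so reads of one could in principle be counted for the other. In the RefSeq coding sequences of assembly R64 they were 69.2% identical over 1462 aligned bases, against 58.5% to 63.6% for the other pairs among SIR2, HST1, HST2, HST3 and HST4, and the longest run of identical bases was 14. The most alike window of 100 bases is shown to let this be judged, with the 16 bases that differ in capitals. It spans bases 896 to 995 of the coding sequence of SIR2 and 734 to 833 of that of HST1, each read 5′ to 3′ on its own coding strand, which is the minus strand of chromosomes 4 and 15.
SIR2: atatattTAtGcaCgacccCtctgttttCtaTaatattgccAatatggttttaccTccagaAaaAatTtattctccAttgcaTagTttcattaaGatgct
HST1: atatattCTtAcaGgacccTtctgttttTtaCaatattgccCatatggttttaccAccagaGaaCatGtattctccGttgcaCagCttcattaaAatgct
The mismatches are spread over the window. The read length is unknown, and the number of reads that the aligner could have placed in both genes was not estimated.

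SUM1 and RFM1 encode the partners through which Hst1 reaches DNA. SUM1 (YDR310C, Crick strand of chromosome 4, 1081151 to 1084351) had 1.06 and 1.09 in wild-type cells, 0.465 and 0.792 in the rtt109 strain and 0.887 and 1.17 in the hst3 hst4 strain. Both rtt109 libraries were the lowest, and the hst3 hst4 libraries lay on either side of wild type. RFM1 (YOR279C, Crick strand of chromosome 15, 843701 to 844651) had 1.21 and 1.94 in wild-type cells, 1.28 and 1.45 in the rtt109 strain and 2.00 and 0.967 in the hst3 hst4 strain, and its highest and lowest libraries were the 2 of the hst3 hst4 strain. The level of HST1 was 2.13 to 3.38 times that of SUM1 within a library and 1.23 to 2.58 times that of RFM1, while RFM1 ranged from 0.826 to 2.75 times SUM1.

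DOT1 and SAS2 encode the enzymes whose marks limit silencing. DOT1 (YDR440W, Watson strand of chromosome 4, 1342501 to 1344251) had 0.810 and 1.17 in wild-type cells, 0.388 and 0.558 in the rtt109 strain and 0.875 and 0.946 in the hst3 hst4 strain. Both rtt109 libraries were below all 4 others. SAS2 (YMR127C, Crick strand of chromosome 13, 522351 to 523351) had 2.08 and 2.24 in wild-type cells, 1.01 and 1.28 in the rtt109 strain, and 2.18 and 1.10 in the hst3 hst4 strain. For SAS2 replicate 2 of the hst3 hst4 strain sat with the rtt109 libraries and replicate 1 with wild type.

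The first comparison asks whether these transcripts differ without Rtt109. None of the 10 genes passed an adjusted p under 0.05 (limma with Benjamini-Hochberg adjustment over the 5211 genes), against 3.44% of all tested genes. DOT1 had 0.988 ± 0.251 in wild-type cells and 0.473 ± 0.120 in the rtt109 strain (SD, n = 2 each), with a log2 fold change of -0.97 with a 95% interval from -1.72 to -0.23 and a limma adjusted p of 0.144. SAS2 had 2.16 ± 0.115 and 1.14 ± 0.189 (SD, n = 2 each), with a log2 fold change of -0.90 (-1.66 to -0.13) with a limma adjusted p of 0.188. SIR2 and SUM1 had log2 fold changes of -0.77 (-1.54 to -0.01) and -0.76 (-1.51 to -0.01), and that of SUM1 was -0.41 without replicate 1 of the rtt109 strain and -1.11 without replicate 2. These 4 genes had an unadjusted p under 0.05, as did 20.0% of all genes tested.

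Most of the transcriptome was lower in the rtt109 strain on the spike-in scale, with a median log2 fold change of -0.37 over all tested genes, and the 10 genes had a median of -0.56. The spike-in was added per mass of total RNA, so that a level is relative to total RNA and not per cell. In these bulk samples, fewer cells with a transcript and less of it per cell cannot be told apart. For 6 of the 10 genes, SIR2, SIR4, HST1, SUM1, DOT1 and SAS2, both rtt109 libraries were below both wild-type libraries, and so they were for 48.6% of all tested genes. Relative to other genes, DOT1 and SAS2 stood low: 4.82% and 7.29% of tested genes had a log2 fold change at or below theirs. With each library centred on its median, DOT1 had -0.68 and SAS2 -0.60, with limma adjusted p of 0.268 and 0.440; over all alternatives the adjusted p of DOT1 ran from 0.0977 to 0.820 and that of SAS2 from 0.150 to 0.820. SIR1 (-0.20), SIR3 (-0.11) and RFM1 (-0.17) lay above the median of all genes on the spike-in scale, and turned to 0.09, 0.19 and 0.13 with centred libraries. HST2 had 0.06 with an interval from -0.69 to 0.80.

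The second comparison asks whether the other sirtuins and their partners differ where Hst3 and Hst4 are missing. Again none of the 10 passed, against 2.48% of all tested genes, and none had an unadjusted p under 0.05, against 7.98%. HST2 had 1.52 ± 0.149 in wild-type cells and 2.20 ± 0.291 in the hst3 hst4 strain (SD, n = 2 each), with a log2 fold change of 0.52 with a 95% interval from -0.23 to 1.26 and a limma adjusted p of 0.981. Both of its hst3 hst4 libraries were above both wild-type libraries, which held for 20.9% of all tested genes. SIR1, SIR3 and SIR4 had log2 fold changes of 0.00, 0.01 and -0.04, and HST1 had -0.16 with both hst3 hst4 libraries below wild type, as for 8.9% of all genes. SAS2 had the lowest value, -0.46 (-1.22 to 0.30), and it was 0.01 without replicate 2 of the hst3 hst4 strain. The median over the 10 genes was -0.08 against 0.04 over all tested genes. The intervals reached from -1.22 to 1.26, and the bounds lay a median of 0.74 from the estimate. These intervals are not adjusted for the number of genes, and larger differences than that also missed the threshold.

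The third comparison sets both mutants against each other. None of the 10 genes passed, against 1.38% of all tested genes. All 10 log2 fold changes of the hst3 hst4 strain against the rtt109 strain were above 0, from 0.03 for RFM1 to 0.88 for DOT1, with a median of 0.46 against 0.41 for all tested genes. DOT1 (0.14 to 1.63, limma adjusted p of 0.264) alone had an unadjusted p under 0.05, against 15.6% of all genes. Both hst3 hst4 libraries were above both rtt109 libraries for SIR4, HST1, HST2, SUM1 and DOT1, and for 51.1% of all tested genes. With each library centred on its median, SIR1, SIR3 and RFM1 turned to -0.17, -0.26 and -0.34. These comparisons share libraries, so the values of one gene in 2 of them are not independent.

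**Figure D2:**
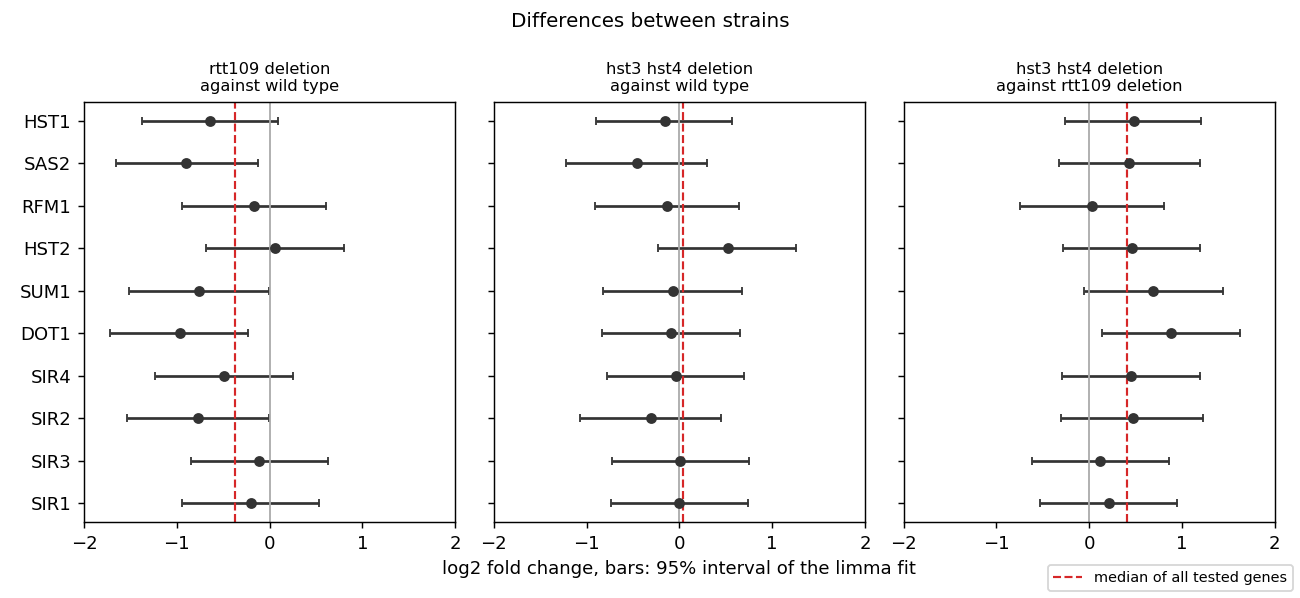
Log2 fold change of each gene in the 3 comparisons of strains, with the 95% interval of the limma fit as bars, a grey line at 0 and a dashed line at the median of all tested genes (-0.37, 0.04 and 0.41). The intervals of DOT1, SAS2, SIR2 and SUM1 lie below 0 in the first panel, and that of DOT1 above 0 in the third, while all 10 genes miss the adjusted threshold in each panel.

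Coverage was uneven along the genes, and by a different amount in each library. Over 1251 genes of 40 bins or more, each cut into 3 equal sections, the median ratio of coverage in the first section to that in the last came to 0.473 and 0.357 for wild type, 0.306 and 0.459 in the rtt109 strain and 0.263 and 0.308 in the hst3 hst4 strain. The longest member, SIR4, had ratios of 0.135 and 0.070 in wild-type cells, 0.0489 and 0.151 in the rtt109 strain and 0.0493 and 0.0374 in the hst3 hst4 strain. Its last section had 1.36 and 1.78, 1.16 and 1.08, and 1.97 and 1.53 in the same order, more than the whole-gene level in each library. SIR1 was the exception, with ratios from 0.808 to 1.84. SUM1 had 0.212 to 0.344 and HST1 0.554 to 0.796. The part of this unevenness in the differences between strains was not tested directly, but with levels taken from the last section of each ORF, DOT1 had -0.90 and SAS2 -0.96 in the rtt109 strain against wild type, and none of the 10 genes passed in any comparison.

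**Figure D3:**
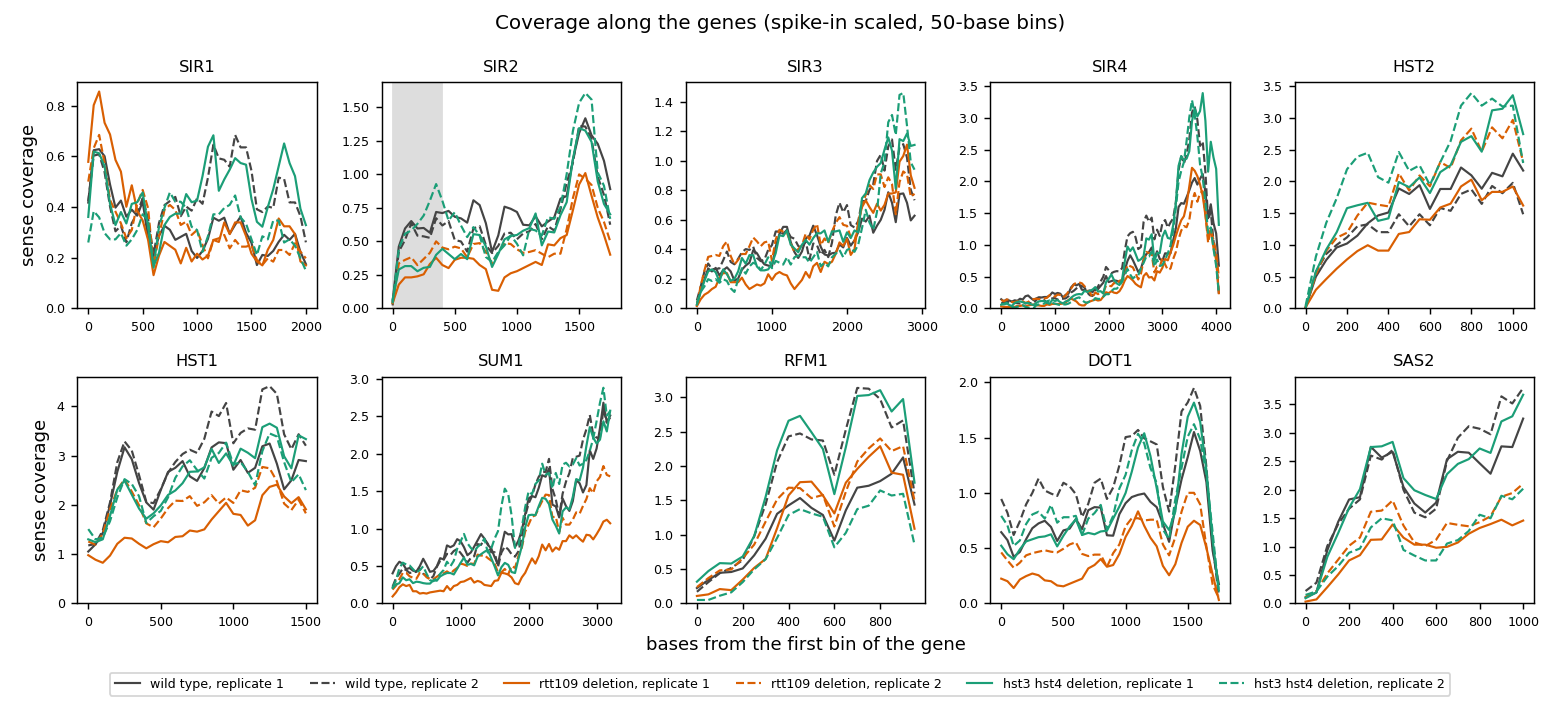
Sense coverage of the 10 genes in bins of 50 bases from the first bin of each gene, with 1 line per library (solid for replicate 1, dashed for replicate 2); the grey area of SIR2 marks the 8 bins that the table names. Coverage rises towards the end of SIR3, SIR4 and SUM1. SIR1 is highest near its start in both rtt109 libraries and also in replicate 1 of wild type. The rtt109 lines of DOT1 run below the others along most of the gene.

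The opposite strand was read for the 9 genes with enough bins free of an ORF there, all but SIR2. Antisense levels of SIR1, SIR3, SIR4, HST1, SUM1, RFM1 and DOT1 stayed between 0.000169 and 0.0470, at most 3.34% of their sense level, and the median over all tested genes was 0.385% to 2.09% per library. SAS2 stood out with 0.183 and 0.121 in wild-type cells, 0.250 and 0.244 in the rtt109 strain and 0.305 and 0.180 in the hst3 hst4 strain. That was 8.78% and 5.38% of its sense level in wild type, 24.8% and 19.1% in the rtt109 strain, and 14.0% and 16.3% in the hst3 hst4 strain. Both rtt109 libraries were above both wild-type libraries in the antisense level of SAS2, which held for 4.06% of the 5005 genes with an antisense value, while its sense level was lower in both.

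The antisense coverage of SAS2 was confined in these 6 libraries almost wholly to the end of the gene. In the last section it reached 0.447 and 0.353 for wild type, 0.678 and 0.708 in the rtt109 strain and 0.836 and 0.491 in the hst3 hst4 strain, against 0.00177 to 0.0352 in the first section. It went on past the end of the ORF, at 0.0915 to 0.249 over the next 10 bins. HST2 had the next highest antisense levels, 0.0644 and 0.0375 in wild-type cells, 0.0366 and 0.0293 in the rtt109 strain and 0.0976 and 0.0965 in the hst3 hst4 strain, mostly in its first section. Both hst3 hst4 libraries were above both wild-type libraries for HST2, as for 16.7% of genes, and the level was at most 4.88% of its sense level. In the named bins of SIR2, which overlap an ORF on the opposite strand, YDL041W, that strand had 0.0298 and 0.0183 in wild-type cells, 0.00771 and 0.00329 in the rtt109 strain and 0.0741 and 0.0773 in the hst3 hst4 strain. These values were not tested across genes.

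**Figure D4:**
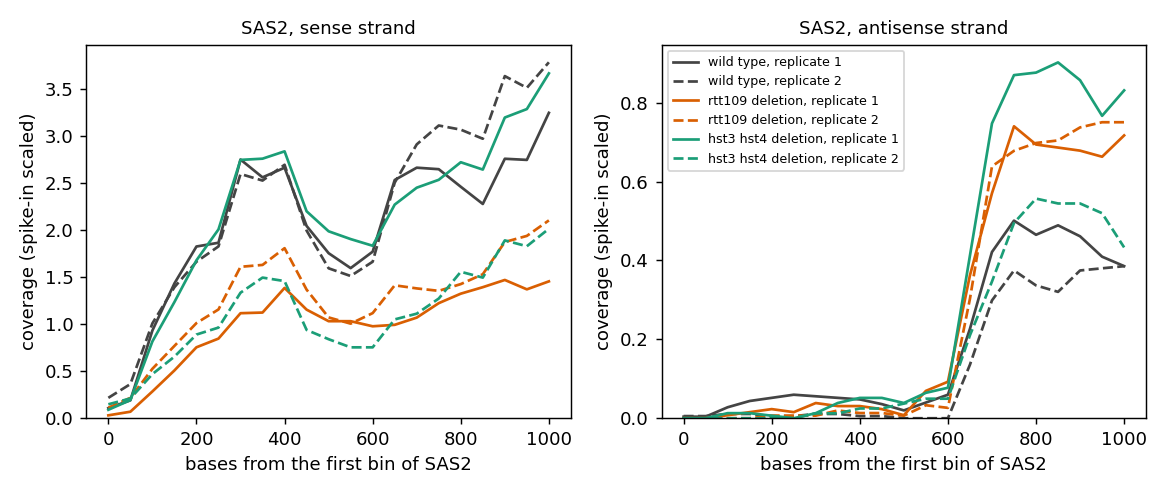
Coverage of SAS2 in bins of 50 bases from its first bin, on the sense strand (left) and the antisense strand (right, with its own axis), with 1 line per library. Antisense coverage begins beyond the middle of the gene and is higher in both rtt109 libraries (0.678 and 0.708 in the last section) than in both wild-type libraries (0.447 and 0.353), whereas sense coverage is lower in the rtt109 libraries.

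The table also holds a replication timing score for each bin from an earlier publication, whose unit is not stated. The mean score of the ORF was highest for SUM1, 67.7, and SIR2, 62.2, at the 89.9th and 83.5th percentile of ORFs, and lowest for SIR4, 35.9, and DOT1, 37.8, at the 15.3rd and 20.8th. The other 6 genes had scores from 41.8 to 57.0 around the median of all ORFs, 47.4. SIR2, SIR4, SUM1 and DOT1, all on chromosome 4, thus lay at both ends of the scale.

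Known partners of these factors were taken from lists of named genes, which were drawn up with earlier results of these data known. Of 10 genes for proteins that bind silencers and telomeres, 1 fell in the rtt109 strain, 0 rose and 9 did not pass, where 0.94% of all tested genes fell. It was ABF1, a silencer-binding transcription factor, which had 2.08 and 2.65 in wild-type cells and 0.964 and 0.926 in the deletion, a log2 fold change of -1.26 and a limma adjusted p of 0.0391. The call was lost with centred libraries (-0.96, limma adjusted p of 0.0929), and over its alternatives the adjusted p ran from 0.0242 to 0.434. ORC2, a subunit of the origin recognition complex, had the smallest p of this list in the hst3 hst4 strain against wild type, with -0.43.

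None of the genes of the other partner lists passed in any comparison: 6 for silencing in the ribosomal DNA, 6 of the Set3 complex in which Hst1 also resides, 10 for marks and borders of active chromatin, 7 tested of 8 for histone chaperones, 5 for other histone deacetylases and 4 for nicotinamide salvage. Of the 37 different genes tested in these lists, 9, 1 and 8 had an unadjusted p under 0.05 in the 3 comparisons (20.0%, 7.98% and 15.6% of all tested genes). Their median log2 fold changes in the rtt109 strain against wild type ran from -0.40 for the chaperones to -0.65 for the ribosomal DNA list, beside -0.37 for all tested genes. PNC1, the nicotinamidase that clears an inhibitor of sirtuins, had 5.34 and 4.66 in wild-type cells, 11.5 and 7.58 in the rtt109 strain and 12.9 and 10.6 in the hst3 hst4 strain. All 4 mutant libraries were above wild type, and in the hst3 hst4 strain its log2 fold change was 1.22 ± 0.37 (SE) with a limma adjusted p of 0.0699. FOB1, the replication fork barrier protein of the ribosomal DNA, had -0.86 in the rtt109 strain, and BRE1, the ubiquitin ligase for histone H2B, had -1.08 with a limma adjusted p of 0.120.

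Several genes that Sum1, Rfm1 and Hst1 are known to repress passed the threshold in a comparison. Of these, CDA1, SGA1, SPS4 and BNA2 passed the filter on low values only through the groups where they were high. The list of middle sporulation genes had 16 members, of which 6 passed the filter, a mean level over all 6 libraries above 0.177. In the hst3 hst4 strain against wild type CDA1, SGA1 and DIT1 rose, but the wild-type means of CDA1 and SGA1 were under that level, so these genes were tested only because of their mutant libraries, and their number is no measure for the list. CDA1, a chitin deacetylase of the spore wall, had 0.0367 and 0.0482 in wild-type cells, 0.202 and 0.163 in the rtt109 strain and 0.472 and 0.409 in the hst3 hst4 strain. Its log2 fold change in the hst3 hst4 strain was 2.30 ± 0.36 (SE) with a limma adjusted p of 4.5e-05, and in the rtt109 strain, where it rose as well, 1.25 with 0.0408. SGA1, a glucoamylase of sporulating cells, had 0.0483 and 0.0487 in wild-type cells, 0.160 and 0.156 in the rtt109 strain and 0.328 and 0.429 in the hst3 hst4 strain, where it rose by a log2 fold change of 2.02 (limma adjusted p of 0.000402).

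DIT1, an enzyme of spore wall maturation, had 0.323 and 0.227 in wild-type cells, 0.564 and 0.730 in the rtt109 strain and 1.76 and 0.694 in the hst3 hst4 strain, where it rose by 1.82 on the log2 scale (limma adjusted p of 0.00279). For CDA1 and SGA1 all 4 mutant libraries were above wild type and the hst3 hst4 libraries were highest, while replicate 2 of that group lay between the rtt109 libraries for DIT1. SPS4 went the other way: it fell in the rtt109 strain from 0.579 and 0.571 to 0.0681 and 0.119, a log2 fold change of -2.08 (limma adjusted p of 0.000315), and had 0.438 and 0.203 in the hst3 hst4 strain. Its mean in the rtt109 strain was under the filter level, which it passed through the other groups. SPR6 rose between the mutants, with 0.537 and 0.668 in the rtt109 strain and 1.62 and 1.58 in the hst3 hst4 strain, a log2 fold change of 1.33 (limma adjusted p of 0.0487), beside 1.41 and 1.35 in wild type.

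With no filter on low values the rises of CDA1, SGA1 and DIT1 in the hst3 hst4 strain did not pass (limma adjusted p of 0.0777, 0.0777 and 0.208), nor did those of CDA1 and SPS4 in the rtt109 strain (0.125 and 0.142) or SPR6 between the mutants (0.275). The first 3 of these calls were also lost without either rtt109 library (limma adjusted p of 0.0969, 0.0969 and 0.259), although their values did not change, and DIT1 had 1.19 (0.183) without replicate 1 of the hst3 hst4 strain. Over all alternatives the adjusted p ran from 4.5e-05 to 0.386 for CDA1, from 0.000402 to 0.545 for SGA1 and from 2.18e-05 to 0.545 for DIT1. For CDA1 in the rtt109 strain it ran from 0.0115 to 0.515, for SPS4 from 4.84e-06 to 0.384 and for SPR6 from 0.0388 to 0.807, and each of these calls was lost without either rtt109 library. Of all 16 genes, the 10 left out for low values included, both hst3 hst4 libraries were above both wild-type libraries for 13, which held for 24.2% of all genes with a value. Of the 10 low genes alone it held for 8, beside 53.3% of the 580 genes left out for low values, many of which lay near the steps of the libraries. No gene at these low levels was tested.

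Sum1 binds the middle sporulation element, which was searched for as GNCACAAA or GNCGCAAA on both strands from 250 bases before to 50 bases after the start of each gene in RefSeq assembly R64. It was found for 9 of the 16 sporulation genes (56.2%), for 1 of 6 NAD genes (16.7%) and for 442 of 6001 protein-coding genes (7.37%). Windows of 60 bases are shown for SGA1, which rose, for SPS4, which fell in the rtt109 strain, and for SMK1, SPR28 and CDA2, low genes with both hst3 hst4 libraries above wild type. Each is read 5′ to 3′ on the strand of its gene, with the match in capitals.
SGA1: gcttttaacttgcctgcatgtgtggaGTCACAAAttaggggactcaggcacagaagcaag
SPS4: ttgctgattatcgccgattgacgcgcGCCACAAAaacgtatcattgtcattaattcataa
SMK1: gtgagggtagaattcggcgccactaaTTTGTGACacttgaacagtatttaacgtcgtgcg
SPR28: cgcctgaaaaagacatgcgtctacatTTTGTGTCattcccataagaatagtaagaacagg
CDA2: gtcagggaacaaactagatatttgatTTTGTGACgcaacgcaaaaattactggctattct
The windows lie at chr9:177783-177842 (plus strand) for SGA1, chr15:903033-903092 (minus) for SPS4, chr16:666175-666234 (plus) for SMK1, chr4:905116-905175 (minus) for SPR28 and chr12:747745-747804 (plus) for CDA2. The match begins 195, 192, 79, 97 and 166 bases before the start of the gene in that order. In SMK1, SPR28 and CDA2 it reads on the opposite strand, so that its reverse complement is printed. A match of these letters is a description, and binding was not measured. CDA1 and DIT1, which also rose, had no match in this window. Nor had DIT2 and YSW1, low genes with both hst3 hst4 libraries above wild type. NDT80 had 2 matches, with 0.122 and 0.0718 in the hst3 hst4 strain against 0.193 and 0.0841 in wild type.

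Among 6 genes of NAD synthesis and uptake on the list of targets, 5 passed the filter. BNA2, the first enzyme of the path from tryptophan, passed it only through its mutant libraries, and its rise is no measure for the list. It had 0.124 and 0.0879 in wild-type cells, 0.214 and 0.219 in the rtt109 strain and 0.630 and 0.880 in the hst3 hst4 strain. BNA2 rose by 2.30 ± 0.37 (SE) on the log2 scale in the hst3 hst4 strain against wild type (limma adjusted p of 4.99e-05) and by 1.55 against the rtt109 strain (0.0158); the first call was lost with no filter (0.0801) and without either rtt109 library (0.0969), and the second with no filter (0.276) and with centred libraries (1.17, 0.225). Over their alternatives the adjusted p ran from 2.01e-05 to 0.271 and from 0.00902 to 0.807. TNA1, the nicotinic acid transporter, fell in the rtt109 strain from 1.68 and 2.30 to 0.435 and 0.545, a log2 fold change of -1.89 (limma adjusted p of 0.000783, and 5.45e-05 to 0.299 over its alternatives), where 0.94% of all tested genes fell. BNA1, BNA4 and BNA6 did not pass in any comparison.

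**Figure D5:**
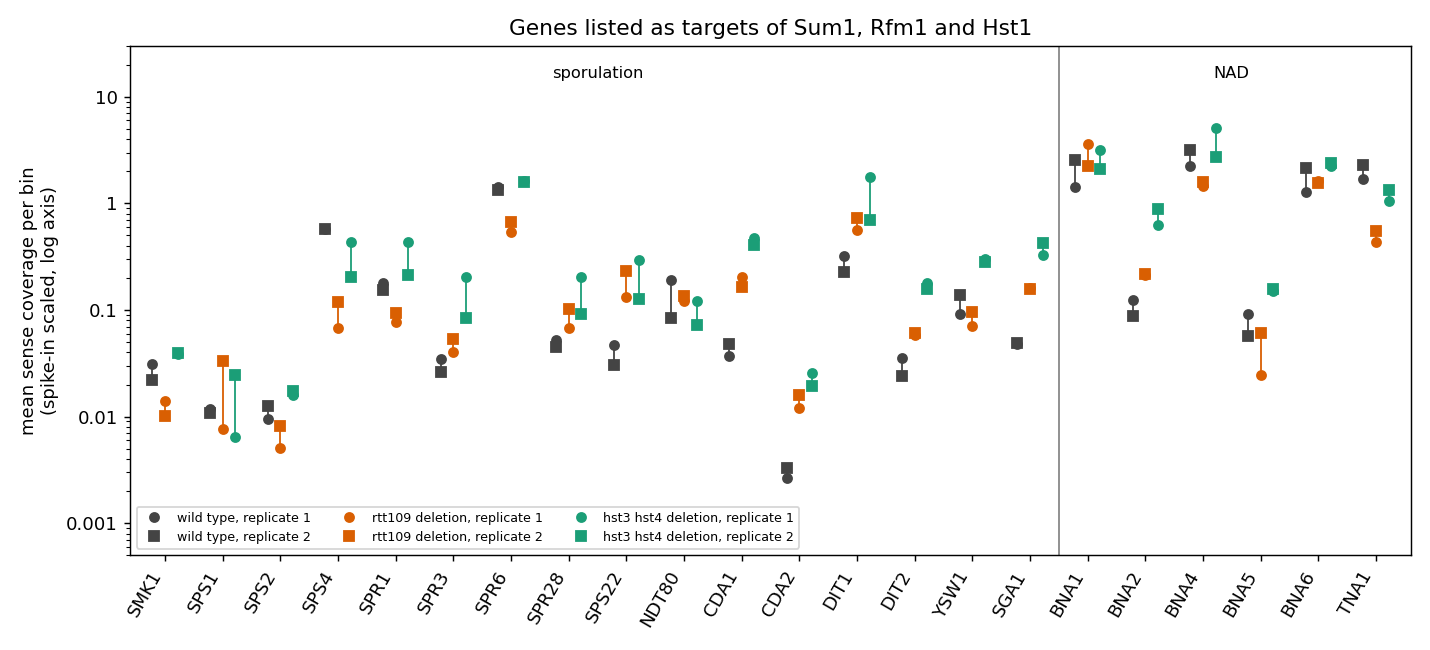
Level of the 16 sporulation and 6 NAD genes listed as targets of Sum1, Rfm1 and Hst1 in the 6 libraries, as mean sense coverage per bin on a log axis, with a line joining the 2 libraries of a group. CDA1, SGA1 and BNA2 are lowest in wild type (0.0367 to 0.124), intermediate in the rtt109 strain and highest in the hst3 hst4 strain, whereas SPS4 and TNA1 are lowest in the rtt109 strain; 10 of the sporulation genes and BNA5 were left out of the test for low values.

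Genes near chromosome ends, where the Sir proteins act, were mostly too low to test: of 112 ORFs within 10 kb of an end of the table, 93 had a value and 28 were tested. In the rtt109 strain 2 rose and in the hst3 hst4 strain 3 rose, beside 2.49% and 2.34% of all tested genes, and 0 fell in either, beside 0.94% and 0.134%. YPS6 and YOL163W, 2 of these genes, had wild-type means under the filter level of 0.177 and were tested only because of their mutant libraries, so these counts are no measure for the list. Over all 93 genes with a value, both hst3 hst4 libraries were above both wild-type libraries for 23 and below for 4. The shares of all genes with a value were 24.2% and 8.48%. In the rtt109 strain the counts were 18 above and 18 below, beside 13.5% and 45.5%. YPS6, a cell wall protease, rose in both, from 0.115 and 0.122 in wild type to 0.593 and 0.448 in the rtt109 strain and 0.710 and 0.484 in the hst3 hst4 strain (limma adjusted p of 0.00328 and 0.00119). YOL163W had log2 fold changes of 1.23 and 1.82 in the same order, and YEL073C rose in the hst3 hst4 strain by 1.59 against wild type and by 1.47 against the rtt109 strain. With no filter the rises of YPS6, YOL163W and YEL073C in the hst3 hst4 strain against wild type did not pass (limma adjusted p of 0.108, 0.0801 and 0.121), nor did they without either rtt109 library (0.109, 0.0974 and 0.142). In the rtt109 strain those of YPS6 and YOL163W did not pass with no filter either (0.123 and 0.125). The silent mating-type cassettes were not analysed here.

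Mating-type genes were read as well, since a cell that expresses both cassettes turns off haploid-specific genes. What the values of the hst3 hst4 strain show depends on its mating type. It is labelled MATalpha, whereas its tested a-specific genes had a median log2 fold change of 0.30 against wild type, beside 0.04 for all tested genes. STE6 had 2.90 and 2.40 there against 2.98 and 3.83 in wild type, and MFA1 20.5 and 13.9 against 14.7 and 12.3. The a-specific transcripts were thus near the levels of the MATa wild type, and the mating type was not tested otherwise. Of 6 tested a-specific genes none passed against wild type in either mutant, and 2 rose in the hst3 hst4 strain against the rtt109 strain, beside 0.787% of all tested genes, ASG7 by 1.49 and the pheromone gene MFA2 by 1.47 on the log2 scale (limma adjusted p of 0.0204 and 0.0290). Both calls were lost with centred libraries (0.224 and 0.253), and the mean of ASG7 in the rtt109 strain, 0.160, was under the filter level. Of 6 haploid-specific genes, STE18, the gamma subunit of the pheromone-coupled G protein, fell in the rtt109 strain by 1.35 on the log2 scale (limma adjusted p of 0.0261, and 0.159 with centred libraries), to a mean of 0.124, beside 0.94% of all tested genes that fell, and 5 did not pass; in the hst3 hst4 strain against wild type 0 passed, with a median of -0.05. Of the 4 alpha-specific genes only SAG1 was tested, with 0.31 and 0.36 in the 2 mutants against wild type. MF(ALPHA)1, too low to test, had 0.0582 and 0.0929 in the rtt109 strain.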

How the data were processed

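Groups and replicate numbers came from the sample titles. Per the file headers, the deposited table holds coverage per strand in bins of 50 bases, scaled by the authors to the spike-in, and a replication timing score; per the submitters' processing notes, base calls were made with CASAVA 1.7.0, while no aligner and no budding yeast build are named in the sources used here. Bin labels are on the table's build; RefSeq R64 coordinates are given only for sequences. Of 240976 bins, 11670 (4.84%) held a letter in place of a value and were not used. A level is the mean over the bins of an ORF without its first and last bin, introns and bins that 2 ORFs of that strand share. The fit used log2(level + 0.0587), the offset being the 5th percentile of levels above 0, which understates fold changes where levels are low. The lowest 10% by mean level (580 genes) were left out, and all 6 libraries entered 1 limma fit (limma 3.58.1, R 4.3.3) with 3 residual and 37.7 prior degrees of freedom. The threshold was an adjusted p of 0.05. The fit was tested on simulated data. Tables were read with Python 3.11.15 and sequences aligned with Biopython 1.88. The members, the lists and the tests were chosen with earlier results of these data known. Of each list the text names up to 3 genes past the threshold with the largest change in a comparison, or else the gene with the smallest p; STE3, MF(ALPHA)1, STE2 and the low sporulation genes were chosen after their values were seen. Alternatives changed the offset, the filter, the scaling, the bins, the libraries in the fit and the replicate block, and 2 (SIR2 between its marks, and the last of 3 sections of each ORF) were added after seeing the data.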

Additional observations from a re-analysis of the deposited data

How the results depend on the processing

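None of the 10 genes passed under any alternative, in any of the 3 comparisons, nor with 1 library left out, where the lone library of a group is assumed to vary like the others. Counts over all genes moved far more. In the rtt109 deletion against wild type 179 genes passed, and 2 with an offset 10 times larger, 4 with no filter, 62 over the last section of each ORF, and 3 to 251 with 1 library left out; with the columns normalized to 1 the split of 130 higher and 49 lower became 247 and 10, and with centred libraries 153 and 11. In the hst3 hst4 deletion against wild type 129 passed, and 1, 2 and 63 under those first 3 alternatives, 54 with centred libraries, 2 with only the 2 groups compared and 2 to 123 with 1 library left out. Between the mutants 72 passed (41 higher, 31 lower), and 0, 1 and 4, then 26 (4 and 22) with the columns normalized to 1, 14 (2 and 12) with centred libraries and 0 to 89 with 1 library left out. Without replicate 1 or replicate 2 of the rtt109 deletion the counts were 4 and 3, 2 and 2, and 2 and 0 in the 3 comparisons. The cause was not tested.

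Same-numbered libraries did not deviate together (r of -0.227, 0.0639 and 0.222 for the 3 pairs of groups), so the numbers were not taken as a pairing. With the replicate block 101 genes passed in the rtt109 deletion against wild type and 12 between the mutants, and no call among the 10 genes changed.

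Directions that turned were all of values that did not pass. In the rtt109 deletion against wild type, SIR1 turned to 0.19, SIR3 to 0.27 and RFM1 to 0.24 with the columns normalized to 1, to 0.09, 0.19 and 0.13 with centred libraries, and SIR3 to 0.01 over the last section. In the hst3 hst4 deletion against wild type, centred libraries gave -0.07 for SIR1 and for SIR3, every ORF bin -0.01 for SIR1, the columns normalized to 1 gave 0.01 for SIR4, and the last section 0.15 for SIR4 and 0.00 for SIR2. Between the mutants the columns normalized to 1 gave -0.14, -0.23 and -0.34 for SIR1, SIR3 and RFM1, centred libraries -0.17, -0.26 and -0.34, and the last section -0.02 for RFM1. With 1 library left out, these values ranged from -0.41 to 0.00 (SIR1), -0.33 to 0.12 (SIR3), -0.24 to 0.35 (HST2) and -0.49 to 0.16 (RFM1) in the rtt109 deletion against wild type. In the hst3 hst4 deletion against wild type they ranged from -0.22 to 0.22 (SIR1), -0.76 to 0.15 (SIR2), -0.14 to 0.16 (SIR3), -0.23 to 0.15 (SIR4), -0.26 to 0.12 (SUM1), -0.63 to 0.37 (RFM1), -0.34 to 0.16 (DOT1) and -0.93 to 0.01 (SAS2). Between the mutants they ranged from -0.01 to 0.42 (SIR1), -0.11 to 0.34 (SIR3), -0.47 to 0.54 (RFM1) and -0.04 to 0.91 (SAS2).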
